A study of Mus musculus with 5 samples.

Results

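Cell cycle genes were measured in mouse leukocytes from melanoma and colon carcinoma tumours and in dendritic cells (DCs) grown from bone marrow. The set holds 43 genes, named one by one and found in every one of 3 single-cell matrices, which list 18087 genes (5555 tumours), 19427 (CT26 tumours) and 19603 (cultures). Of these, 16 act in S phase, 22 act in G2 and mitosis (G2/M), and 5 (Stmn1, Tubb5, Tuba1b, Hmgb2 and Ccnd1) are either abundant in many cells or not tied to 1 phase and are described apart. The members were taken by name and by no cut-off on a measured value, but with earlier results of these data known.

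The tumour cells of 3 libraries were live CD45+ leukocytes from C57BL/6 mice, 4 days after injection of 5555 melanoma cells. One library came from Ptgs+/+ tumours, one from Ptgs-/- tumours, whose injected cancer cells lack Ptgs, the genes of the prostaglandin-making cyclooxygenases, and one from Ptgs-/- tumours of mice given antibodies against NK1.1 (clone PK136) and Asialo GM-1 to deplete natural killer (NK) cells. The fourth library held CD45+ cells of CT26 colon carcinomas in BALB/c mice at day 12. The fifth pooled C57BL/6 bone marrow cultures, differentiated with FLT3L and GM-CSF and harvested at day 10, in 3 conditions told apart by hashtag antibodies: untreated, with 5555 Ptgs+/+ cells and with 5555 Ptgs-/- cells. The deletion lies in the cancer cells, so the sorted leukocytes of every 5555 group came from hosts described as C57BL/6 only. Whether a line was 1 clone and how many mice or tumours were pooled in a library are not given in the sources used here.

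Each group was 1 library or 1 hashtagged condition. No test between conditions was therefore possible, no p-value is given, and every interval (95%) covers counting error only, with no measure of the spread between mice or cultures. Total UMIs, the counted RNA molecules, ran from 13341180 in Ptgs+/+ tumours to 39748683 in CT26 tumours, and the median per cell from 3633.5 (Ptgs+/+ tumours) to 9709.5 (untreated cultures). The cell classes are those the authors deposited, among them conventional DCs of type 1 (cDC1) and type 2 (cDC2), tumour-associated macrophages (TAM) and CCR7+ DCs, which the authors call cDC3 in 5555 tumours, actDC in CT26 tumours and mDC in cultures. In the 5555 matrix 9 barcodes were carried by 18 cells, which were left out, and 23 to 44 barcodes occurred in more than 1 matrix.

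A dividing cell first copies its DNA in S phase and then, after the G2 gap, separates the copies in mitosis. Genes for each step are switched on in waves: E2F factors drive many S phase genes, and factors that bind the CHR element and CCAAT boxes drive many G2/M genes. DC precursors and early conventional DCs divide in tissues and culture, NK and T cells divide once activated, and mature CCR7+ DCs and neutrophils are known as cells that have mostly left the cycle.

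The S phase members serve 3 jobs. Mcm2, Mcm3, Mcm4, Mcm5, Mcm6 and Mcm7 form the helicase that opens DNA, Gins2 belongs to its active form, and Pcna is the sliding clamp of DNA polymerases and also serves DNA repair. Tyms, Tk1, Dut, Rrm1 and Rrm2 make or guard the pool of DNA building blocks, with Rrm1 and Rrm2 as the subunits of ribonucleotide reductase. Ccne1 and Ccne2, the E cyclins, start S phase, and Uhrf1 carries DNA methylation over to the new strand. Among the G2/M members, Cdk1 is the mitotic kinase, and Ccna2, Ccnb1 and Ccnb2 are its cyclins. Aurka, Aurkb, Plk1, Bub1 and Bub1b are mitotic kinases or checkpoint proteins, and Cdc20 and Ube2c tag mitotic proteins for destruction. Cenpa, Cenpe and Cenpf act at centromeres and kinetochores, Birc5 guides Aurkb, and Nusap1, Tpx2, Kif11, Kif23 and Prc1 build the spindle or its midzone. Top2a untangles chromosomes and Mki67 coats them.

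The sequences just upstream of 3 S and 3 G2/M genes are shown because most of these members stood higher or lower together in the comparisons and Cenpa did not. They are the members of each group with the highest mean level over the cell classes among those with a searched motif. Each is the 250 bases before the annotated start, 5′ to 3′ along the gene's strand, from RefSeq on GRCm38.p6 (mm10): Pcna at chr2:132253181-132253430 on the minus strand, Rrm1 at chr7:102441445-102441694 on the plus strand, Mcm3 at chr1:20820313-20820562 on the minus strand, Top2a at chr11:99024190-99024439 on the minus strand, Mki67 at chr7:135716380-135716629 on the minus strand and Cenpa at chr5:30666636-30666885 on the plus strand. Capitals mark CCAAT boxes (CCAAT, or ATTGG where the box lies on the other strand) and CHR elements (TTTGAA or TTCGAA, with TTCAAA for the other strand).
Pcna: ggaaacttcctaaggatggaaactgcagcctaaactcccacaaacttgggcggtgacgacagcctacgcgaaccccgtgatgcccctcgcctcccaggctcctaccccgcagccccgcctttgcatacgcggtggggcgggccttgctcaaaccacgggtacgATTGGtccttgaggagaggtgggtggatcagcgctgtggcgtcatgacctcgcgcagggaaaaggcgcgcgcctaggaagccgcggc
Rrm1: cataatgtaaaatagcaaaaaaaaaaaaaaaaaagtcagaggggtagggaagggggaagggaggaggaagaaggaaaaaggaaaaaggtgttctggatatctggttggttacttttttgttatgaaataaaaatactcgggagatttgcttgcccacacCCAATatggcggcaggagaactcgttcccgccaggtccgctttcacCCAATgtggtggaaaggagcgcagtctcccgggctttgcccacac
Mcm3: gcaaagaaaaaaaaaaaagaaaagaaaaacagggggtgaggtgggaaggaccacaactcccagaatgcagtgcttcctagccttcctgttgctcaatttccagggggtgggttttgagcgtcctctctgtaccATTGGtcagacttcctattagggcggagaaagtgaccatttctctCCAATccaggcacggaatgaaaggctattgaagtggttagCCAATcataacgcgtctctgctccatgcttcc
Top2a: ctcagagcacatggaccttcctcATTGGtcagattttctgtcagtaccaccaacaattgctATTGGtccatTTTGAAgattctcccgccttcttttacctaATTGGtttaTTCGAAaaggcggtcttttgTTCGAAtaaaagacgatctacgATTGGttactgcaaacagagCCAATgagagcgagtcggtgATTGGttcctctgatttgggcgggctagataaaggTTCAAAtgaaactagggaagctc
Mki67: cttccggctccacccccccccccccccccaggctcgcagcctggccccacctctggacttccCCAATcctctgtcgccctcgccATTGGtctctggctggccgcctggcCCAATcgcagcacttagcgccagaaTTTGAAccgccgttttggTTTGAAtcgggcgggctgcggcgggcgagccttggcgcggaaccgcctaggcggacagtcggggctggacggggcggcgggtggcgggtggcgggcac
Cenpa: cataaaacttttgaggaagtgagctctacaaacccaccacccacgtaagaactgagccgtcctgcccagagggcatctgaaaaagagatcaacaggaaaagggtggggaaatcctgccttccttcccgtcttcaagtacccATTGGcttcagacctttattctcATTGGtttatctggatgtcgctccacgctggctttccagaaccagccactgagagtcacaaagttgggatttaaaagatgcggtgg

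Top2a held 4 CHR elements and 6 CCAAT boxes in this window, Mki67 held 2 and 3, and Cenpa held 2 CCAAT boxes and none of the CHR letters. Nusap1 and Birc5, whose levels followed the other G2/M genes, held none of the searched motifs. Ccnb1, which followed them too, held 2 CCAAT boxes and no CHR element, like Cenpa. Whether the motifs go with the pattern of Cenpa was not tested. Promoters of 35 of the 43 members could be matched by symbol, 13 of the S genes, 19 of the G2/M genes and 3 of the 5 others. A CHR element stood upstream of 9 of the 19 G2/M genes (47.4%), 2 of the 13 S genes (15.4%) and 19.6% of all 27025 genes in the table. A CCAAT box was found for 17 G2/M genes (89.5%), 9 S genes (69.2%) and 37.5% of all genes. The E2F letters TTTCGCGC, TTTGGCGC, TTTCCCGC and TTTGCCGC, searched on both strands, were present for 4 S genes (Mcm5, Mcm6, Mcm7 and Uhrf1, 30.8%), 1 G2/M gene (Cdk1, 5.26%) and 2.16% of all genes. A match is a description of the letters and shows no bound factor. Ccne2, Mcm4, Gins2, Ccna2, Aurkb, Tpx2, Stmn1 and Ccnd1 were not matched.

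Averaged over all annotated cells, most members were at their lowest in Ptgs+/+ tumours and at their highest in untreated cultures. Levels below are the mean over cells in CPM, the UMIs of a gene scaled to a fixed total per cell. Mki67 averaged 8.93 CPM in Ptgs+/+ tumours, 26.8 in Ptgs-/- tumours, 11.6 in NK-depleted Ptgs-/- tumours and 51.0 in CT26 tumours. In cultures it averaged 165 untreated, 59.9 with Ptgs+/+ cells and 105 with Ptgs-/- cells. Top2a followed the same order, with 11, 32.7 and 20.4 CPM in the 5555 groups, 51.3 in CT26 tumours and 243, 115 and 185 in the cultures. Mcm5, of the helicase, averaged 7.40, 19.6 and 17.3 CPM in the 5555 groups in that order, 18.1 in CT26 tumours and 38.2, 10.5 and 15.2 in the cultures. The rarest members were seen at a few CPM in tumours: Plk1 averaged 0.587, 2.10 and 0.891 CPM in the 5555 groups and 2.83 in CT26 tumours, against 23.2, 11 and 15.9 in cultures.

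A few members had patterns of their own in these averages. Pcna was highest, among tumours, in the NK-depleted ones (71.2, 81.7 and 109 CPM in the 5555 groups, 36.8 in CT26), and it averaged 113, 45.4 and 60.6 CPM in cultures. Cenpa, the histone H3 variant of centromeres, was higher in Ptgs+/+ (111 CPM) than in Ptgs-/- (62.4) and NK-depleted (59.2) tumours, and lower in untreated cultures (108) than in those with Ptgs+/+ (197) or Ptgs-/- cells (180). Kif23, a kinesin of the midzone, stood at 15.4, 15.4 and 16.1 CPM in the 5555 groups. Ube2c, the E2 enzyme that ends mitosis, was nearly level across the cultures at 144, 141 and 154 CPM.

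Of the 43 members, 33 were at their lowest in Ptgs+/+ tumours and 38 at their highest in untreated cultures. Tk1 averaged 1.13, 3.39 and 1.63 CPM in Ptgs+/+, Ptgs-/- and NK-depleted tumours, 6.40 in CT26 tumours and 33.3, 17.3 and 25.3 in the cultures. Nusap1, a spindle protein, averaged 0.910, 5.08 and 2.74 CPM, 13.6 and then 67.0, 40.2 and 59.7 in the same order. Among the cyclins, Ccne1 averaged 1.12, 2.53 and 2.01 CPM, 3.8 and then 12.7, 5.35 and 6.36, and Ccnb1 0.768, 2.74 and 1.61, 3.62 and then 25.4, 19.2 and 22.4. Ccnd1 averaged 80.1, 172 and 183 CPM, 153 and then 399, 259 and 269, so it was highest, among tumours, in the NK-depleted ones. In bulk averages of this kind fewer cycling cells and less RNA per cycling cell cannot be told apart.

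To count cycling cells, each cell was thinned to 2000 UMIs and called S-positive or G2/M-positive when it kept UMIs of at least 2 distinct genes of that list. Cells under 2000 UMIs were left out, 10.0 to 19.4% of the cells of the tumour libraries and 0.566 to 1.26% of the cells in cultures. S-positive cells made up 3.99% of cells in Ptgs+/+, 8.93% in Ptgs-/- and 7.53% in NK-depleted tumours, 8.64% in CT26 tumours, and 29.8%, 9.92% and 16.4% in the untreated, Ptgs+/+ and Ptgs-/- cultures. G2/M-positive cells made up 2.62%, 4.69% and 2.75% in the 5555 groups, 6.52% in CT26 tumours and 34.3%, 21.3% and 28.0% in the cultures, in the same order. Without thinning the S shares were 11.8%, 22.4%, 25%, 17.0%, 60.1%, 35.1% and 41.1% and the G2/M shares 6.53%, 8.83%, 8.82%, 12.0%, 54.2%, 45.2% and 48.1%. So the order of the NK-depleted and the Ptgs-/- tumours in the S share turned with the depth used.

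Mki67 and Top2a were often found in the same cells. Among cells with a Mki67 UMI after thinning, 18.9% in Ptgs+/+, 46.4% in Ptgs-/- and 43.1% in NK-depleted tumours also held Top2a, 44.4% in CT26 tumours and 69.1%, 59.8% and 68.0% in cultures. Among cells without Mki67, Top2a was held by 1.62%, 2.28% and 1.78% in the 5555 groups, 3.04% in CT26 tumours and 13.1%, 8.14% and 10.6% in cultures. Pcna and Mcm5 paired in this way in every group but Ptgs+/+ tumours: Mcm5 was held by 1.37% of cells with Pcna and 1.59% of those without in Ptgs+/+ tumours, against 6.46% and 2.94% in Ptgs-/-, 6.45% and 2.68% in NK-depleted and 6.75% and 2.88% in CT26 tumours, and 14.7% and 5.46%, 5.45% and 1.80%, and 6.16% and 1.85% in the cultures. Ccnd1 differed in direction between the groups. It was held by 21.6% of Mki67+ cells and 11% of the other cells in Ptgs+/+, 29.7% and 21.7% in Ptgs-/- and 43.1% and 20.2% in NK-depleted tumours, but by 18.1% and 22.1% in CT26 tumours and by 44.1% and 51.5%, 28.2% and 32.8%, and 31.6% and 35.2% in the cultures. Positive cells had more UMIs than the rest before thinning, for example a median of 6350.5 against 5103 in Ptgs-/- tumours and 11169 against 8336 in untreated cultures. The part of depth in the shares beyond thinning was not tested.

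Cycling cells were spread unevenly over the classes of 5555 tumours, and the classes with the most differed between libraries. In Ptgs+/+ tumours the highest S shares were in T cells (17.6% of 17 cells), NK cells (12.5%, 5.55 to 23.2) and the class named Mono Mac (10.5%, 3.96 to 21.5). In Ptgs-/- tumours they were in cDC1s (45.5%, 28.1 to 63.6), NK cells (23.1%, 18.2 to 28.5) and Mono Mac (15.2%, 11 to 20.4), with cDC2s close behind (15.1%, 12.1 to 18.5). Low shares were seen in Monocytes 2 (S 1.88%, 2.05% and 2.01%, G2/M 0.625%, 0.820% and 1.12% in Ptgs+/+, Ptgs-/- and NK-depleted tumours) and TAM 2 (S 1.56%, 1.30% and 2.00%, G2/M 2.49%, 0.866% and 0.500%), which serve as the background measured in the same way. Median UMIs of Monocytes 2 were 3402, 3799 and 4346. CCR7+ DCs had S shares of 4.08%, 7.02% and 9.52% and G2/M shares of 0 of 49 cells (up to 7.25% at the exact bound), 3.51% and 2.38%. Neutrophils and B cells had too few cells of 2000 UMIs to give a share.

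**Figure D1:**
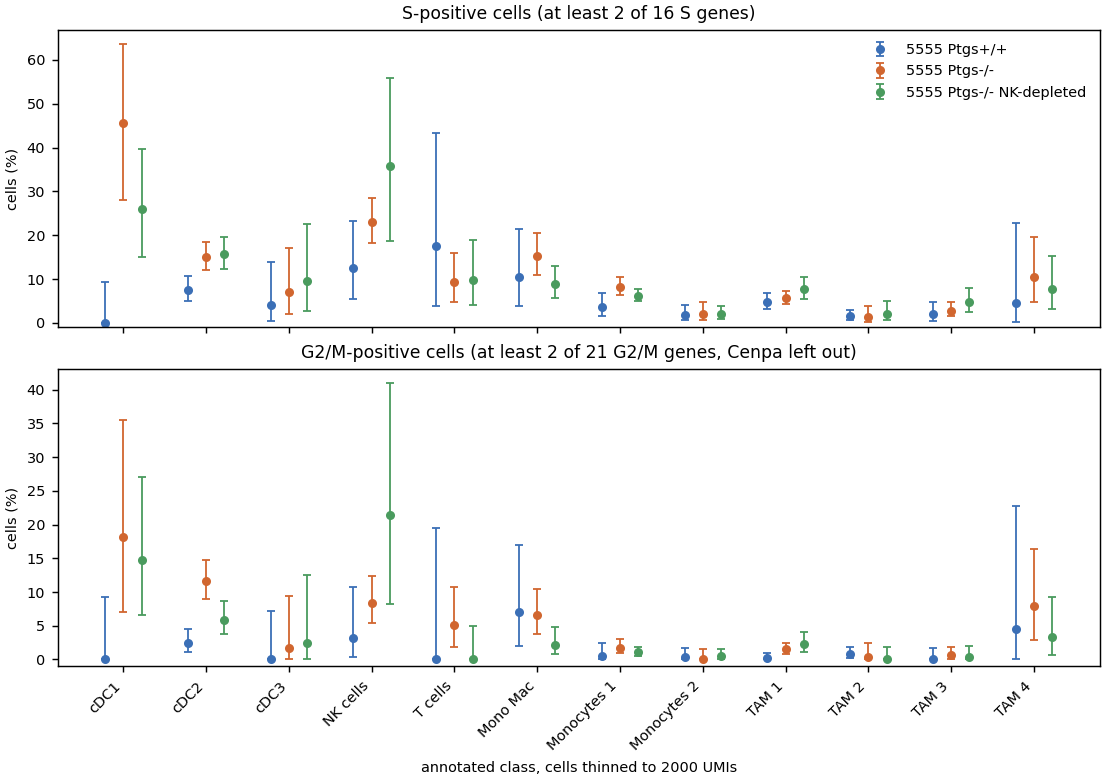
Share of S-positive cells (top) and of cells positive for G2/M genes with Cenpa left out (bottom), in % of cells of at least 2000 UMIs thinned to 2000, by annotated class in the 3 libraries of 5555 tumours; bars are exact 95% intervals of counting error. Among cDC1s S-positive cells make up 0, 45.5% and 25.9% (Ptgs+/+, Ptgs-/- and NK-depleted), while Monocytes 2 lie near 2% in each.

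The deletion of Ptgs in the injected cancer cells was compared first, Ptgs-/- over Ptgs+/+ tumours. Most members that passed a filter on detection stood higher in cDC1s and cDC2s of Ptgs-/- tumours, and in NK cells and Monocytes 1 a part of the S genes did (4 of 9 in each). Cenpa was lower in cDC2s, NK cells and Monocytes 1. Over all cells the G2/M-positive share was 1.79 times as high (interval 1.36 to 2.34) and the S-positive share 2.24 times (1.81 to 2.77). With cells thinned to 4000 UMIs the ratios were 1.14 (0.891 to 1.45) and 1.57 (1.34 to 1.85). Leaving Cenpa out of the G2/M list gave 4.01 times (2.63 to 6.11), asking for 3 genes in place of 2 gave 6.39, and asking for 1 gene, which lets cells with Cenpa alone count, turned the ratio to 0.801. Differences in level below are log2 folds of the mean CPM plus 5, called higher or lower by size alone from 1.5-fold, for genes detected in 5% or more of cells of 1 of the libraries. Over all cells, 9 of the 16 S genes passed that filter and 6 were higher, none lower, where 8.34% of all tested genes were higher and 5.76% lower. Of the 22 G2/M genes 3 passed, Mki67 (log2 fold 1.19) and Top2a (1.24) higher and Cenpa (-0.79) lower.

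In cDC1s, the DCs specialised in presenting antigen to CD8 T cells, no S-positive or G2/M-positive cell was found among 38 cells of Ptgs+/+ tumours. The exact interval allows a share of up to 9.25%. In Ptgs-/- tumours 45.5% of 33 cells were S-positive and 18.2% (6.98 to 35.5) G2/M-positive, and after NK depletion 25.9% (15.0 to 39.7) and 22.2% (12.0 to 35.6) of 54 cells. Without thinning, 21.1%, 54.5% and 50.0% of the cDC1s were S-positive and 2.63%, 36.4% and 35.2% G2/M-positive, in the order Ptgs+/+, Ptgs-/- and NK-depleted, at median depths of 5131.5, 8261 and 7480.5 UMIs. The cells carried their class markers: Xcr1, Clec9a, Wdfy4, Irf8 and Itgae summed to 3199, 4148 and 4599 CPM in the 3 libraries in that order, with none at 0, against 75.9, 39.7 and 64.8 CPM for 5 cDC2 markers and 29.4, 22.4 and 52.0 for 5 macrophage markers.

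Single genes in these cDC1s ranged from absent to frequent. Mki67 had 0 UMIs in Ptgs+/+ tumours and 49 in Ptgs-/- tumours (173 CPM), at least 12.1-fold higher when 3 counts are taken as the limit of the empty library, 14.3 CPM. Top2a had 0 and 61 UMIs (225 CPM, at least 15.8-fold higher), Mcm2 0 and 39 (133 CPM, at least 9.32-fold) and Rrm2 0 and 22 (78.1 CPM, at least 5.48-fold). Every one of these was at 0 in 38 cells of one library and in 21.2% or more of 33 cells of the other. Pcna averaged 31.5 CPM in Ptgs+/+ and 216 in Ptgs-/- tumours (log2 fold 2.60), with 7 and 61 UMIs, a UMI ratio of 7.0 (3.20 to 18.1). Mcm5, with 2.25 and 101 CPM, gave 3.87 on the log2 scale from 1 and 30 UMIs, a ratio of 24.1 whose interval runs from 4.01 to 983.

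Of the S genes, 15 of 16 passed the filter in cDC1s and 14 were higher and none lower, in a class where 27.6% of all tested genes were called higher and 21.8% lower on so few cells. Of the 22 G2/M genes, 19 passed and 18 were called higher. Many passed only through the Ptgs-/- cells, so these counts describe the cells and support nothing by themselves. For 13 of those 19 genes and 3 of those 15 the Ptgs+/+ cells held no UMI, and for Ccnb1, Prc1, Aurka and Bub1b the limit of 3 counts leaves a bound under 1.5-fold. The median log2 fold of the S genes that passed was 2.45, or 1.94 with such genes at their bound, and that of the G2/M genes 2.36 or 1.30, against 0.07 for all tested genes. Summed UMIs went from 39 to 356 for the S genes, a ratio of 7.33 (5.26 to 10.5), and from 7 to 245 for the G2/M genes without Cenpa, a ratio of 28.1 (13.4 to 70.7). Cenpa itself averaged 55 and 45.8 CPM, and Tk1, the thymidine kinase, 5.25 and 8.71.

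The 5 genes kept apart were also higher in cDC1s of Ptgs-/- tumours. Stmn1, which takes microtubules apart, averaged 13.2 CPM in Ptgs+/+ and 264 in Ptgs-/- tumours (log2 fold 3.89, 2 and 77 UMIs). Hmgb2, a chromatin protein, averaged 226 and 948 CPM (2.05), and the tubulins Tubb5 195 and 668 (1.75) and Tuba1b 286 and 649 (1.17). Ccnd1, the D cyclin that links growth signals to the cycle, averaged 398 and 615 CPM (0.62), the smallest difference of the 5.

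cDC2s, which mainly present antigen to CD4 T cells, gave firmer counts, with 376, 523 and 406 cells of 2000 UMIs in the Ptgs+/+, Ptgs-/- and NK-depleted tumours. Their S-positive share was 7.45% (5.01 to 10.6), 15.1% (12.1 to 18.5) and 15.8% (12.4 to 19.7), and their G2/M-positive share 5.59% (3.49 to 8.41), 12.8% (10.1 to 16.0) and 6.16% (4.02 to 8.96). So the S share was as high after NK depletion as before it and the G2/M share was not. Without Cenpa the G2/M shares were 2.39%, 11.7% and 5.91%. The ratio of Ptgs-/- to Ptgs+/+ was 2.03 (1.35 to 3.06) for S and 2.29 (1.43 to 3.68) for G2/M, and 4.87 (2.45 to 9.69) for G2/M without Cenpa.

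All 16 S genes passed the filter in cDC2s, and 12 were higher and none lower in Ptgs-/- tumours, where 10.7% of all tested genes were higher and 7.57% lower. Their median log2 fold was 0.92, against 0.04 for all tested genes. Uhrf1 averaged 4.39 CPM in Ptgs+/+ and 26.2 in Ptgs-/- tumours (log2 fold 1.73), Mcm5 11.8 and 50.1 (1.72) and Rrm2 3.94 and 22 (1.60). Pcna (73.7 and 81.3 CPM, 0.13), Gins2, Dut and Mcm4 stayed under the 1.5-fold limit. Of 19 G2/M genes that passed, 17 were higher, 1 lower and Aurka (0.43) in between, with a median of 1.38. The highest were Mki67 (15.6 and 83.6 CPM, 2.11) and Top2a (19.7 and 94.4 CPM, 2.01), followed by Cenpf, a kinetochore protein (5.65 and 36.4 CPM, 1.96), and Birc5 (5.54 and 35.9 CPM, 1.96). Cenpa was the 1 that was lower, at 210 and 77.9 CPM (-1.37). These counts rest on the scale used: when log2 values were averaged over cells, which weighs down genes held by few cells, 3 S genes and 2 G2/M genes were called higher, and with genes in at least 10% of cells 7 and 4.

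The 5 genes kept apart were higher in cDC2s as well: Stmn1 (29.0 and 120 CPM, log2 fold 1.88), Hmgb2 (199 and 406, 1.01), Ccnd1 (326 and 586, 0.84), Tubb5 (322 and 515, 0.67) and Tuba1b (398 and 606, 0.60). Markers of other classes went with this comparison, and their part in the result was not tested. In cDC2s the 5 macrophage markers, none of them at 0, summed to 675 CPM in Ptgs+/+, 1945 in Ptgs-/- and 1272 in NK-depleted tumours, and the 5 monocyte markers to 1458, 2382 and 2360, beside 1374, 2637 and 3090 for the cDC2 markers Cd209a, Sirpa, Irf4, Clec10a and Mgl2. The G2/M-positive share was 17.5%, 17.4% and 9.65% among cDC2s with a UMI of the macrophage genes C1qa or C1qb (57, 213 and 114 cells) and 3.45%, 9.68% and 4.79% among those without (319, 310 and 292 cells), in the same order of libraries. So this share, which counts Cenpa, was higher in Ptgs-/- than in Ptgs+/+ tumours among the cDC2s without these genes. Among those with them it was nearly equal, on 10 positive cells in Ptgs+/+ and 37 in Ptgs-/- tumours. The split was not made without Cenpa. In the same order of libraries, the S-positive share was 12.3%, 17.8% and 24.6% with these genes and 6.58%, 13.2% and 12.3% without them.

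**Figure D2:**
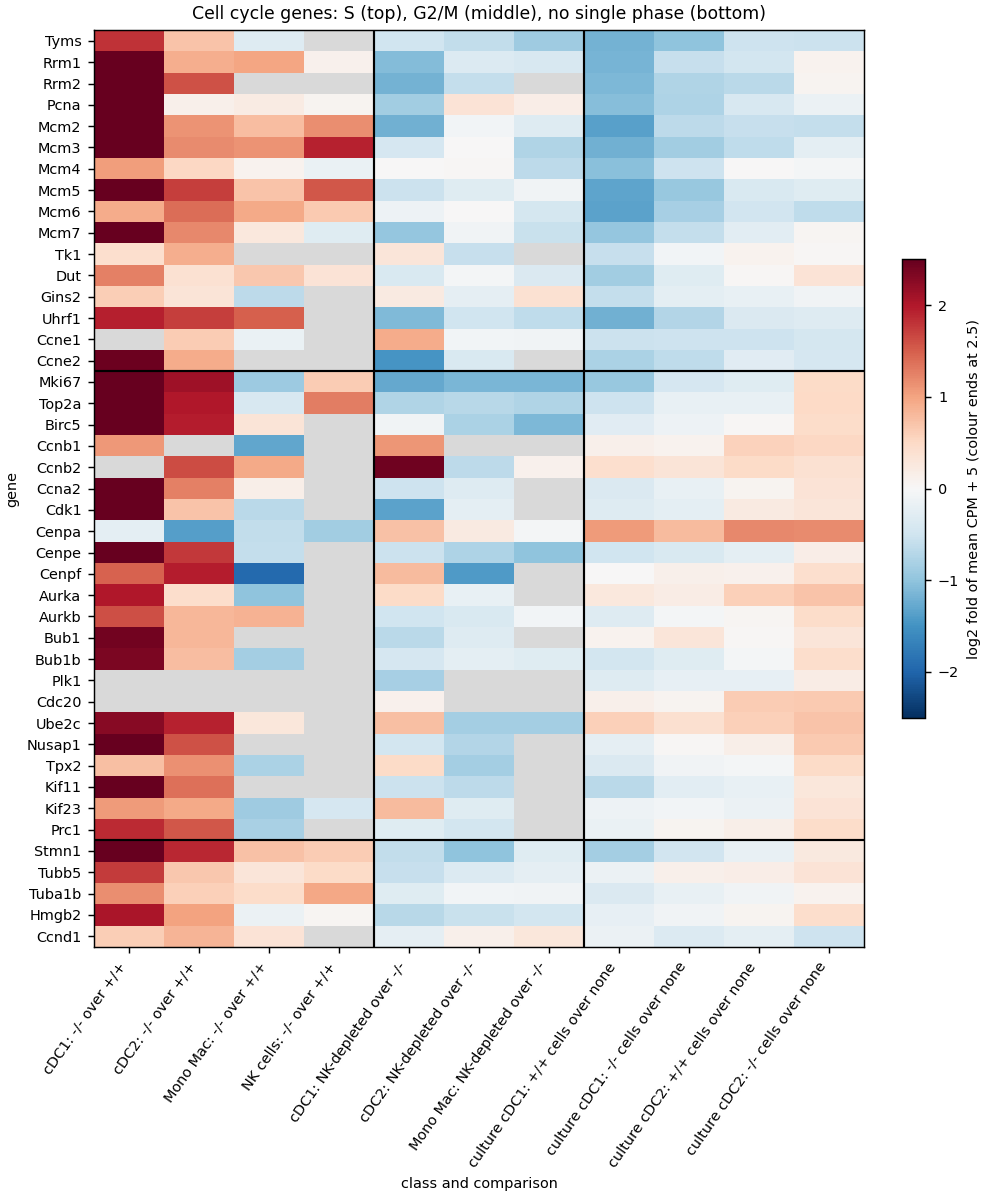
Heat map of the log2 fold (mean CPM plus 5) of all 43 members in 11 pairs of class and comparison; rows are genes (S at the top, G2/M in the middle, the 5 genes kept apart at the bottom), red is higher, blue is lower, and grey marks a gene that did not pass the filter. The cDC1 and cDC2 columns of Ptgs-/- over Ptgs+/+ tumours are mostly red except Cenpa (-1.37 in cDC2s), and the S genes of culture cDC1s are blue while Cenpa is red; colours end at 2.5 and include fitted values for genes with no UMI in one group.

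NK cells of Ptgs-/- tumours had higher levels of the helicase genes than those of Ptgs+/+ tumours. Mcm3 averaged 6.63 and 39.1 CPM (log2 fold 1.92), Mcm5 11.3 and 42.7 (1.55) and Mcm2 18.4 and 47.5 (1.16), while Pcna was level at 83.3 and 87.4 (0.07). Top2a averaged 27.8 and 74.4 CPM (1.28) and Mki67 35.1 and 57.7 (0.64). Of 9 S genes that passed, 4 were higher and none lower, and of 4 G2/M genes 2 were higher and 1, Cenpa (176 and 94.0 CPM, -0.87), lower, where 13.3% of all tested genes were higher and 10.6% lower. Summed UMIs of the G2/M genes without Cenpa were 6.17 times as high per total UMI (4.40 to 8.91), and of the S genes 2.01 times (1.65 to 2.47). With each cell weighted equally the summed levels were nearer, at 113 and 321 CPM for G2/M without Cenpa and 362 and 531 CPM for S. The shares of positive cells had wide intervals on 64 and 273 cells of 2000 UMIs: 12.5% and 23.1% for S (ratio 1.85, 0.932 to 3.66) and 4.69% and 11% for G2/M (ratio 2.34, 0.738 to 7.44). Ccnd1 was nearly absent from NK cells, at 10.3 and 8.79 CPM. Of 8 cycle inhibitors that passed, Cdkn1a (p21) was lower (192 and 53.3 CPM, -1.75) and Rb1 higher (0.65).

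In Mono Mac, a class with both monocyte and macrophage markers, the S genes called higher in Ptgs-/- tumours were 7 of 13 that passed, against 1 lower (Gins2, -0.65), with Uhrf1 at 3.47 and 19.0 CPM (log2 fold 1.5) and Mcm3 at 27.1 and 64.6 (1.12). Of 17 G2/M genes that passed, 11 were called lower and 2 higher (Ccnb2, 0.94, and Aurkb, 0.86), with Cenpf at 49.9 and 9.30 CPM (-1.94), Ccnb1 at 14.8 and 3.09 (-1.29), Mki67 at 72.8 and 36.6 (-0.90) and Top2a at 57.8 and 42.7 (-0.40). In this class 14.3% of all tested genes were higher and 12.2% lower. The UMI ratios were 1.52 (1.30 to 1.80) for S and 0.651 (0.563 to 0.754) for G2/M without Cenpa. The Ptgs+/+ side is 57 cells, of which 5 were G2/M-positive (8.77%, 2.91 to 19.3, against 7.0%, 4.13 to 11, of 243), so few cells stand behind its G2/M levels. The ratio of G2/M-positive shares was 0.798 (0.307 to 2.07), 0.938 without Cenpa and 1.41 when 3 genes were asked for. Several G2/M genes passed the filter only through these 57 cells, so the count of genes called lower supports nothing by itself. The 5 macrophage markers in Mono Mac summed to 3492 CPM in Ptgs+/+ and 1732 in Ptgs-/- tumours, with none at 0, and their part in the result was not tested.

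In Monocytes 1 the largest differences lay outside the S and G2/M lists. Ccnd1 averaged 38.6 CPM in Ptgs+/+ and 217 in Ptgs-/- tumours (log2 fold 2.35), the related D cyclin Ccnd2 15.2 and 89.1 (2.22) and Stmn1 2.16 and 26.5 (2.14). Among S genes, 4 of 9 that passed were higher and none lower, where 8.94% of all tested genes were higher and 7.96% lower: Mcm7 (3.07 and 13.4 CPM, 1.19), Mcm6 (7.14 and 21.1, 1.10), Dut (0.91) and Mcm5 (0.87). Top2a averaged 9.41 and 15.6 CPM (0.52) and Cenpa 58.0 and 35.9 (-0.62). In TAM 1, where 8.84% of all tested genes were higher and 7.25% lower, Ccnd1 was also higher (65.7 and 162 CPM, 1.24), and all 9 S genes that passed, from Pcna (-0.18) to Mcm4 (0.44), stayed within 1.5-fold.

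In CCR7+ DCs Cenpa made up most of the G2/M signal of Ptgs+/+ tumours. It averaged 228 CPM in Ptgs+/+, 29.4 in Ptgs-/- and 10.9 in NK-depleted tumours, on 54, 58 and 45 cells, while Mki67 averaged 0, 2.28 and 11.1 CPM. The summed G2/M UMIs were 0.262 times as high in Ptgs-/- as in Ptgs+/+ tumours (0.161 to 0.414) with Cenpa and 2.72 times (0.854 to 11.3) without it. Ccnd1 averaged 249, 557 and 305 CPM and Pcna 56.6, 25.2 and 58.2. S genes went both ways, 3 higher and 4 lower of 9 that passed, where 24% of all tested genes were higher and 23.7% lower. In T cells, with 17 cells of 2000 UMIs in Ptgs+/+ tumours, the S UMI ratio was 0.802 (0.560 to 1.17).

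Other cell cycle genes, from lists chosen with earlier results known, were also mostly higher in conventional DCs of Ptgs-/- tumours where they passed the filter. The backgrounds were those given above, 27.6% of all tested genes higher and 21.8% lower in cDC1s and 10.7% and 7.57% in cDC2s, and in cDC1s many genes passed only through the 33 Ptgs-/- cells of 2000 UMIs. All 18 further S genes passed in cDC1s and 17 were higher in Ptgs-/- tumours, with Rfc2 (0.04) as the exception, and in cDC2s 12 of 15 were higher, led by Lig1, the DNA ligase of replication (4.07 and 27.8 CPM, log2 fold 1.86), and Hells, a chromatin remodeller (8.62 and 26.2, 1.2). Of 26 further G2/M genes, 16 of 17 that passed were higher in cDC1s, with Cks2 lower (-1.02), and 14 of 16 in cDC2s, led by Cdca3 (2.31 and 23.0 CPM, 1.94) and Tacc3 (2.90 and 18.2, 1.55). Of the 9 drivers of G1, E2f1, the factor that turns on S phase genes, was higher in cDC1s (5.0 and 34.2 CPM, 1.97) and cDC2s (7.78 and 26.3, 1.29). Ccnd2 (156 and 372 CPM, 1.23) and Cdk6 (29.7 and 73.4, 1.18) were higher in cDC2s. Of 12 inhibitors, 9 passed in each class: Rbl1 (1.81 in cDC1s, 0.77 in cDC2s) and Cdkn2c (0.88 and 0.84) were higher and Cdkn2d, p19, was lower (-0.86 and -1.25). Rbl2 was lower in cDC1s (-0.91), while Cdkn1a stayed within 1.5-fold (-0.39 and -0.15). The inhibitors' counts in cDC1s, 2 higher and 2 lower of 9, lie near the background of that class.

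NK depletion was compared within Ptgs-/- tumours, with the Ptgs-/- library serving both this and the first comparison, so the 2 sets of folds are not independent. G2/M genes stood lower in mean level after depletion in cDC2s and Mono Mac, and Cenpa did not follow. For Mono Mac the interval of the ratio of G2/M-positive shares included 1. S genes differed less in cDC2s, while in Mono Mac the S-positive share was lower as well. Over all cells the G2/M-positive share was 0.587 times as high (0.460 to 0.748) and the S-positive share 0.843 times (0.723 to 0.983). At the class mixture of the Ptgs-/- library the ratios were 0.858 for G2/M and 1.09 for S, and without thinning they were 0.998 (0.871 to 1.14) and 1.12. Over all cells none of the 9 S genes that passed the filter reached 1.5-fold in either direction and 1 of 4 G2/M genes, Mki67 (26.8 and 11.6 CPM, log2 fold -0.94), was lower, where 1.44% of all tested genes were higher and 2.37% lower. Pcna (81.7 and 109 CPM, 0.39) was the highest of the S genes.

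In cDC2s none of the 16 S genes was higher and 2 were lower, Tyms (11 and 5.40 CPM, log2 fold -0.62) and Rrm2 (22 and 12.8, -0.60), with a median of -0.15. Of 19 G2/M genes 10 were lower and none higher, with a median of -0.65, where 3.54% of all tested genes were higher, 3.49% lower and their median was 0.02. Cenpf averaged 36.4 CPM before and 10.6 after depletion (-1.41), Mki67 83.6 and 35.1 (-1.14), Ube2c 37.2 and 18.3 (-0.85), Top2a 94.4 and 56.3 (-0.70) and Cenpa 77.9 and 92.1 (0.23). The count of 10 became 3 with a pseudocount of 20 or with genes in at least 10% of cells, and 0 with mean log2 values per cell. The ratio of summed UMIs was 0.571 (0.533 to 0.610) for G2/M without Cenpa and 0.957 (0.900 to 1.02) for S. Stmn1 (120 and 57.2 CPM, -1.01) was lower, while Ccnd1 (586 and 638, 0.12) was not.

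The phase of the positive cDC2s differed as well, with Cenpa counted as a G2/M gene. Among 41 positive cells of Ptgs+/+ tumours 48.8% were S-positive only, 19.5% both and 31.7% G2/M-positive only. Among 113 of Ptgs-/- tumours the shares were 40.7%, 29.2% and 30.1%, and among 77 of NK-depleted tumours 67.5%, 15.6% and 16.9%. The S-only share was thus highest after depletion.

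In cDC1s, on 33 and 54 cells of 2000 UMIs, the G2/M counts after depletion lay near the share of all genes called. Of 16 S genes, 7 were lower and 1, Ccne1 (0 and 3 UMIs), was called higher, where 20.8% of all tested genes were higher and 16.5% lower. Ccne2 (22.4 and 4.82 CPM, -1.48), Mcm2 (133 and 55, -1.2) and Pcna (216 and 117, -0.86) were lower. Of the 22 G2/M genes 5 were lower, among them Cdk1 (35.1 and 11 CPM, -1.33), Mki67 (173 and 69.1, -1.27) and Top2a (225 and 131, -0.76). A further 6 were higher, among them the cyclins Ccnb2 (2.58 and 36.1 CPM, 2.44) and Ccnb1 (5.59 and 17.6, 1.10). In the Ptgs-/- cells Ccnb1 rests on 2 UMIs and Ccnb2 had a still lower level, so the size of both folds is uncertain. Of 15 positive cDC1s in Ptgs-/- tumours none was G2/M-positive only (60.0% S only, 40.0% both), and of 21 in NK-depleted tumours 33.3% were (42.9% S only, 23.8% both). Leaving Cenpa out took the G2/M-positive cells of NK-depleted tumours from 12 to 8 and left the 6 of Ptgs-/- tumours unchanged. Ccnd1 averaged 615 and 524 CPM (-0.23).

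In Mono Mac 4 of 13 S genes were lower after depletion and none higher, where 3.53% of all tested genes were higher and 3.01% lower, and 5 of 9 G2/M genes were lower and none higher. Mki67 averaged 36.6 and 13.9 CPM (log2 fold -1.14), Birc5 17.4 and 5.27 (-1.13) and Top2a 42.7 and 23.1 (-0.76), and among S genes Tyms 8.04 and 2.06 (-0.89) and Mcm3 64.6 and 36.2 (-0.76). Pcna again went the other way, at 99.0 and 111 CPM (0.16). The ratio of summed UMIs was 0.439 (0.387 to 0.496) for G2/M without Cenpa.

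The 45 cells annotated as NK cells in NK-depleted tumours did not carry NK markers. Ncr1 and Eomes were at 0 and the 5 NK markers summed to 105 CPM, against 4263 in the NK cells of Ptgs-/- tumours, while 5 T cell markers, none at 0, summed to 2350 CPM against 304. These cells had an S-positive share of 35.7% (18.6 to 55.9) and a G2/M-positive share of 21.4% (8.30 to 41.0) of 28 cells, with Mki67 at 84.4, Top2a at 139 and Pcna at 254 CPM. Since they are not the same kind of cell as the class of that name in the other libraries, no fold is given.

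CT26 tumours held a class that the authors name Proliferating cells, and outside it cDC1s cycled most. Of its 123 cells 77.2% (68.8 to 84.3) were S-positive and 86.2% (78.8 to 91.7) G2/M-positive, with Mki67 at 1273 CPM and Top2a at 1322. Members of the set may have defined this class, so its levels are a description. Among the other classes cDC1s led with 27.4% S-positive (22.8 to 32.3) and 22.2% G2/M-positive (18 to 26.9) of 351 cells, and NK cells followed with 20.3% (17.5 to 23.2) and 7.05% (5.37 to 9.06) of 794. T cells had 13.4% and 9.84% of 254, TAM 1 9.62% and 11% of 447 and TAM 2 8.54% and 8.09% of 1113. cDC2s, with 4.40% and 3.98% of 477 cells, lay far below cDC1s, and CCR7+ DCs (1.82% and 2.73% of 110) and plasmacytoid DCs (pDC; 1.98% and 0.495% of 202) were at the low end. The G2/M interval of cDC1s lay above that of every other class but the Proliferating cells, while their S interval met that of NK cells.

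**Figure D3:**
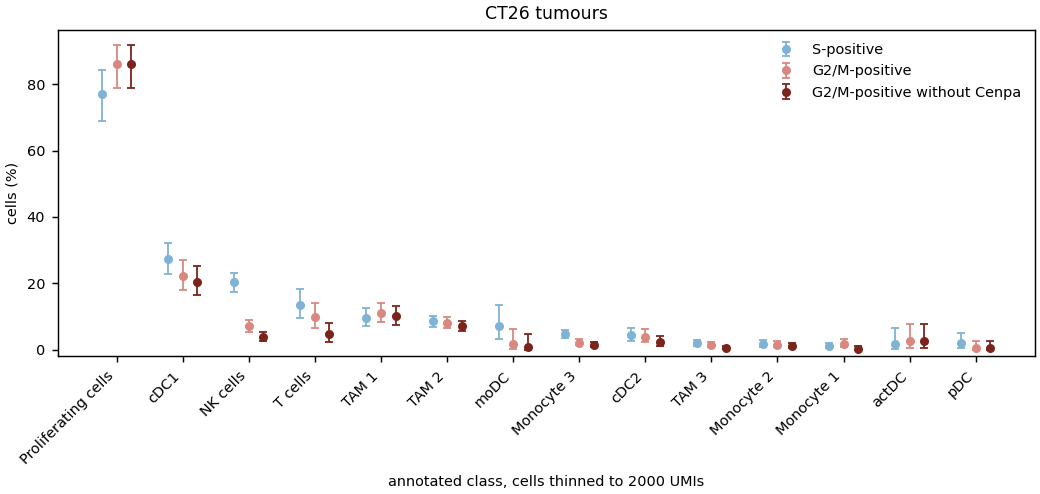
Share of S-positive and of G2/M-positive cells (% of cells of at least 2000 UMIs, each thinned to 2000) by annotated class in the CT26 library; bars are exact 95% intervals of counting error. Proliferating cells (77.2% and 86.2%) and cDC1s (27.4% and 22.2%) lead, and cDC2s (4.40% and 3.98%) lie close to CCR7+ DCs.

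Mki67 and Top2a show the same order as the G2/M shares for cDC1s, cDC2s, CCR7+ DCs and pDCs in CT26 tumours. Monocyte-derived DCs, left out of this order, had S and G2/M shares of 7.14% and 1.79% of 112 cells. They did not keep to it: their G2/M genes without Cenpa summed to 178 CPM over 427 cells. The sums were 140 CPM in cDC2s and 60.6 in CCR7+ DCs, both with higher G2/M shares. Mki67 averaged 178 CPM in cDC1s, 24.4 in cDC2s, 21.8 in CCR7+ DCs and 2.47 in pDCs, and Top2a 170, 16.4, 8.63 and 8.43 CPM. In macrophages Mki67 averaged 76.0 CPM (TAM 1) and 56.2 (TAM 2), and in T and NK cells 55.3 and 25.9. Ccnd1 did not follow: it averaged 370 CPM in cDC1s and 371 in cDC2s but 14.3 in Proliferating cells, 13.0 in NK cells and 14.9 in T cells. Of 124 positive cDC1s 37.1% were S-positive only, 40.3% both and 22.6% G2/M-positive only, whereas of 40 positive cDC2s none was positive for both (52.5% and 47.5% for 1 alone).

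The Proliferating cells were mostly lymphocytes by their genes. Ncr1, an NK receptor, had a UMI in 52.0% of them and Cd3e or Cd3g, of the T cell receptor complex, also in 52.0%, beside 80.8% and 17.8% in the NK class and 0.913% and 87.2% in the T cell class. The mast cell and basophil genes Cpa3 and Mcpt8 were each seen in 10.6% of Proliferating cells. The macrophage gene C1qa was seen in 1 cell (0.813%), the cDC1 receptor Xcr1 in 1.63% (72.6% in the cDC1 class) and Cd79a in none of 123 (up to 2.95% at the exact bound). The positive cDC1s and macrophages of this library were thus annotated in their own classes.

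In the bone marrow cultures, adding 5555 cells went with fewer cells holding S genes, more so for Ptgs+/+ than Ptgs-/- cells, and with smaller differences in G2/M genes. The 3 conditions share 1 library, and both comparisons with untreated cultures share those cells. The S-positive share over all cells was 0.333 times as high with Ptgs+/+ cells as untreated (0.299 to 0.371) and 0.550 times with Ptgs-/- cells (0.502 to 0.602). The G2/M-positive share was 0.620 times (0.575 to 0.670) and 0.815 times (0.760 to 0.875). The mixture of classes differed too, with CCR7+ DCs going from 214 cells untreated to 1060 with Ptgs+/+ and 477 with Ptgs-/- cells. At the class mixture of the untreated cultures the S ratios were 0.458 and 0.617 and the G2/M ratios 0.949 and 0.981. Folds in cultures are relative to the median of all genes. Over all cells it was shifted by -0.24 with Ptgs+/+ and -0.15 with Ptgs-/- cells on the log2 scale. Ratios of summed UMIs are not centred in this way. Over all cells 13 and 9 of 16 S genes were lower and none higher, where 5.29% and 2.2% of all tested genes were lower and 8.21% and 3.97% higher.

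The authors split cDC1s and cDC2s of the cultures into a resting and a proliferating class. Because members may define that split, each pair was joined for the comparisons. The joined cDC1s had an S-positive share of 37.2% (35.2 to 39.3) untreated, 12.5% (11 to 14.2) with Ptgs+/+ and 20.4% (18.6 to 22.4) with Ptgs-/- cells, of 2129, 1692 and 1743 cells. Their G2/M-positive share was 45.1% (43 to 47.3), 33.6% (31.3 to 35.9) and 39.5% (37.2 to 41.8). These intervals treat cells as independent and give no measure of the spread between cultures, so they cannot separate the conditions. Within the class named cDC1 alone the G2/M-positive share was 6.87%, 5.67% and 6.06%. In proliferating cDC1s it was 91.3%, 86.9% and 90.8%. The part of the mixture of these 2 classes in the joined shares was not tested.

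In the joined cDC1s 14 of 16 S genes were lower with Ptgs+/+ cells and 10 with Ptgs-/- cells, none higher, with median log2 folds of -1.09 and -0.65, where 5.31% and 2.6% of all tested genes were lower and 7.28% and 4.09% higher. Mcm2 averaged 24.0 CPM untreated, 4.58 with Ptgs+/+ and 11.2 with Ptgs-/- cells (log2 folds over untreated -1.35 and -0.66), and Mcm6 55.5, 15.4 and 25.1 (-1.33 and -0.83). Mcm5 averaged 49.3, 13.4 and 20.1 CPM (-1.32 and -0.94), Tyms, which makes thymidylate, 39.2, 11.5 and 14.4 (-1.18 and -1.01) and Pcna 133, 51.2 and 66.4 (-1.06 and -0.78). The 2 that stayed within 1.5-fold with Ptgs+/+ cells were Tk1 (-0.58) and Ccne1 (-0.53). Untreated cultures were the highest and those with Ptgs+/+ cells the lowest for each of the 5 genes with printed levels. With Ptgs-/- cells the 10 became 5 with a pseudocount of 20.

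Few G2/M genes of the joined cDC1s reached 1.5-fold, and their number lay near the share of all tested genes called there. With Ptgs+/+ cells 2 of 22 were lower, Mki67 (223 CPM untreated, 94.7 with Ptgs+/+ and 146 with Ptgs-/- cells, log2 folds -0.95 and -0.42) and Kif11 (-0.67), and 2 were higher, Cenpa (126, 228 and 197 CPM, 1.07 and 0.79) and Ube2c (189, 243 and 224 CPM, 0.60 and 0.41). Without centring on the median 7 were lower in place of 2. Top2a, at 319, 186 and 249 CPM (-0.52 and -0.18), stayed within 1.5-fold. With Ptgs-/- cells 1 gene, Cenpa, was higher and none lower. The ratio of summed G2/M UMIs was 0.824 (0.813 to 0.836) with Ptgs+/+ and 0.921 with Ptgs-/- cells, against 0.385 (0.374 to 0.396) and 0.564 (0.550 to 0.579) for S. These ratios are not centred, and the median gene of this class was itself shifted by -0.24 and -0.17 on the log2 scale. Stmn1 averaged 305, 140 and 193 CPM (-0.85 and -0.47) and Ccnd1 389, 297 and 269 (-0.14 and -0.35).

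Among positive cDC1s of the co-cultures a larger part held G2/M genes only, with Cenpa counted as a G2/M gene. The split was not made without Cenpa. Without it the G2/M-positive share of the joined cDC1s was 44.1% untreated, 30.5% with Ptgs+/+ and 36.9% with Ptgs-/- cells. Of 1241 positive cells in untreated cultures 22.6% were S-positive only, 41.3% both and 36.1% G2/M-positive only. Of 611 with Ptgs+/+ cells the shares were 7.04%, 27.7% and 65.3%, and of 769 with Ptgs-/- cells 10.5%, 35.8% and 53.7%. Within the class named proliferating cDC1 the S-positive share was 56.3%, 29.9% and 42.4% of 965, 581 and 687 cells, while 91.3%, 86.9% and 90.8% were G2/M-positive. Markers of the class differed as well: the 5 cDC1 markers, none at 0, summed to 2441, 882 and 1359 CPM in proliferating cDC1s, and their part in the result was not tested.

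**Figure D4:**
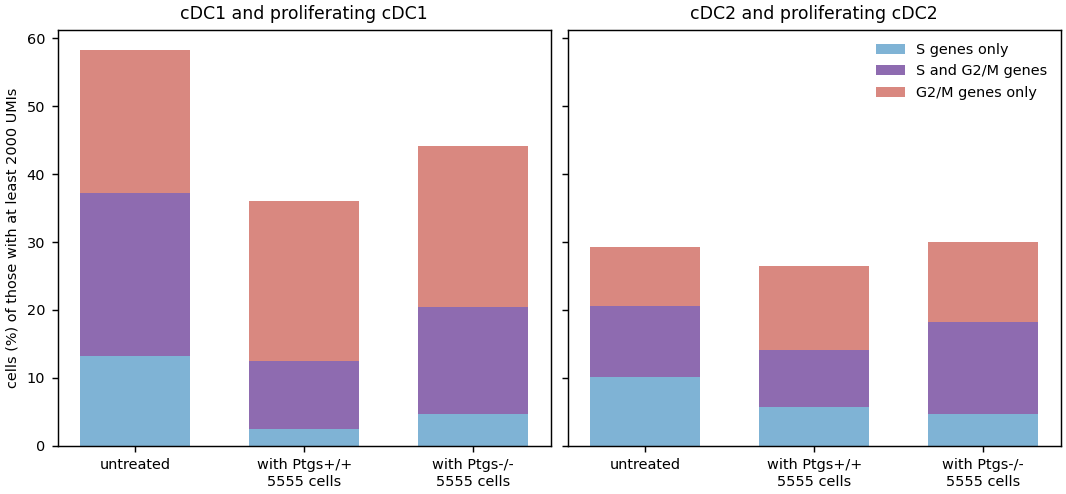
Stacked shares (% of cells of at least 2000 UMIs) of cells positive for S genes only, for both lists and for G2/M genes only, in the joined cDC1 and cDC2 classes of the 3 culture conditions. In cDC1s the S-only part is 13.2% untreated, 2.54% with Ptgs+/+ and 4.65% with Ptgs-/- cells, while the G2/M-only part is 21%, 23.6% and 23.7%. Cenpa counts among the G2/M genes here.

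cDC2s of the cultures differed less in S genes. The joined class had S-positive shares of 20.6%, 14.2% and 18.2% and G2/M-positive shares of 19.2%, 20.8% and 25.5%, untreated, with Ptgs+/+ and with Ptgs-/- cells, of 800, 932 and 1048 cells. Without Cenpa the G2/M shares were 18.6%, 17.7% and 22.8%. With Ptgs+/+ cells 2 of 16 S genes were lower, Rrm2 (log2 fold -0.68) and Mcm3 (-0.63), and 4 of 22 G2/M genes higher, Cenpa (82.9, 183 and 180 CPM, 1.21), Cdc20 (0.63), Ube2c (0.60) and Aurka (0.59), where 2.37% of all tested genes were lower and 3.72% higher. With Ptgs-/- cells Mcm6 (-0.64) and Mcm2 (-0.60) were lower and 5 G2/M genes higher, Cenpa (1.18), Ube2c (0.71), Aurka (0.71), Cdc20 (0.66) and Nusap1 (0.65), where 2.46% were lower and 2.86% higher. Mki67 averaged 82.4, 60.4 and 108 CPM, Top2a 156, 126 and 208 and Pcna 86.6, 59.3 and 72.4. The class named proliferating cDC2 did not stand out by cDC2 markers: 5 of these summed to 754 CPM untreated, close to the 860 of 5 cDC1 markers, and 5 monocyte markers summed to 1633, 2809 and 3171 CPM in the 3 conditions. Whether the cells joined here are all cDC2s is therefore not settled by these markers.

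CCR7+ DCs of the cultures were mostly negative and the more so with cancer cells. Their S-positive share was 9.31% untreated, 2.28% with Ptgs+/+ and 2.59% with Ptgs-/- cells, of 204, 1051 and 463 cells, and their G2/M-positive share 8.82%, 4.19% and 3.89%. Of 13 S genes that passed, 9 and 7 were lower and none higher, where 10.8% and 9.13% of all tested genes were lower and 8.56% and 6.49% higher. Mcm2 averaged 14.3 CPM untreated and 1.39 with Ptgs+/+ cells (log2 fold -1.32), Mcm5 13.6 and 2.17 and Pcna 52.6 and 25.2 (-0.66). Ccnd1 averaged 286, 132 and 155 CPM (-0.81 and -0.63), and Cenpa 85.0, 170 and 162 (1.23 and 1.12), higher in both co-cultures. In pDCs the S-positive share was 5.91%, 8.02% and 7.02% and the G2/M-positive share 3.76%, 9.09% and 6.32% of 186, 187 and 285 cells. The G2/M ratio over untreated was 2.42 (1.03 to 5.69) with Ptgs+/+ and 1.68 (0.715 to 3.94) with Ptgs-/- cells. Without Cenpa it was 2.59 (0.941 to 7.11) and 1.57 (0.561 to 4.37).

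The co-cultures were also compared with each other, Ptgs-/- over Ptgs+/+ cells. The S-positive share was 1.65 times as high (1.46 to 1.86) and the G2/M-positive share 1.31 times (1.21 to 1.42) over all cells, and 1.30 and 1.03 times at the class mixture of the cultures with Ptgs+/+ cells. Over all cells 3 of 15 S genes and 3 of 22 G2/M genes were higher and none lower, where 1.05% of all tested genes were higher and 1.73% lower. In the joined cDC1s 4 of 15 S genes were higher, Mcm2 (4.58 and 11.2 CPM, log2 fold 0.76), Rrm1 (0.65), Dut (0.64) and Tk1 (0.60), and none lower, where 0.638% of all tested genes were higher and 0.801% lower. That count was 7 with a pseudocount of 1 and 0 with 20. Mki67 was higher as well (94.7 and 146 CPM, 0.60). In the joined cDC2s 1 of 15 S genes, Rrm2 (0.76), and 2 of 22 G2/M genes, Mki67 (60.4 and 108 CPM, 0.79) and Top2a (126 and 208, 0.70), were higher and none lower, where 0.487% of all tested genes were higher and 0.603% lower.

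In the joined cDC1s of the cultures 14 of 18 further S genes were lower with Ptgs+/+ cells and 4 with Ptgs-/- cells, where 5.31% and 2.6% of all tested genes were lower and 7.28% and 4.09% higher, while 3 of 26 further G2/M genes were lower with Ptgs+/+ cells (Incenp -0.73, Anln -0.68 and Racgap1 -0.60). E2f1 averaged 17.8 CPM untreated, 5.70 with Ptgs+/+ and 7.11 with Ptgs-/- cells (log2 folds -0.85 and -0.74). Of 9 inhibitors that passed, 4 were higher with Ptgs+/+ cells, led by Cdkn1a (155 and 462 CPM, 1.79) and Btg1, an antiproliferative factor (217 and 572 CPM, 1.63). With Ptgs-/- cells Cdkn1a averaged 366 CPM (1.39) and Btg1 483 (1.31). In the joined cDC2s Cdkn1a averaged 343, 712 and 656 CPM in the 3 conditions.

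Across the 43 members, likeness to the rest of the module was described over 73 pairs of class and group with at least 30 cells, which share libraries and differ in depth, with no test. The measure is Pearson's r between the log2 mean level of a gene and that of the summed other genes of its list. Nusap1 was closest to its list with 0.96, and 0.84 over the 66 pairs that leave out the proliferating classes, followed by Kif11 (0.93 and 0.77) and Ccnb1 (0.93 and 0.72). Mki67 gave 0.88 and 0.73 and Top2a 0.88 and 0.68. Of the S genes Rrm1 (0.91 and 0.83) and Mcm7 (0.88 and 0.79) were closest over the 73 pairs and Mcm2 (0.83 and 0.85) over the 66. Cenpa was least like its list, with 0.47, and -0.09 without the proliferating classes, and Kif23 gave 0.72 and 0.30. Pcna was least like the S genes over the 73 pairs (0.53 and 0.36) and Gins2 over the 66 (0.64 and 0.32). Of the 5 genes kept apart Stmn1 followed both lists (0.89 for S and 0.87 for G2/M), Hmgb2 gave 0.72 and 0.80, Tubb5 0.68 and 0.69, Tuba1b 0.51 and 0.37 and Ccnd1 0.17 and 0.19.

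The levels of these genes over the classes also differed from those of the lists. Cenpa never fell below 10.9 CPM in any pair of class and group and reached 471 in proliferating cDC2s with Ptgs+/+ cells, and in Ptgs+/+ tumours it averaged 249 CPM in T cells, 228 in CCR7+ DCs and 210 in cDC2s, classes where Mki67 averaged 47.7, 0 and 15.6. Pcna ranged from 13.5 to 254 CPM with a median of 69.8. Hmgb2 averaged 908 CPM in neutrophils of Ptgs+/+ tumours, where Mki67 was at 0. Ccnd1 averaged 398, 615 and 524 CPM in cDC1s of the 5555 groups, 217 CPM in Monocytes 1 and 162 in TAM 1 of Ptgs-/- tumours, and 10.3 and 8.79 CPM in NK cells of Ptgs+/+ and Ptgs-/- tumours, with its highest level, 828 CPM, in pDCs of untreated cultures.

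Cells with Cenpa were often without any other G2/M gene in tumours. After thinning, 17.4% of cells in Ptgs+/+, 10.1% in Ptgs-/- and 8.99% in NK-depleted tumours, 11.6% in CT26 tumours and 15.4%, 26.2% and 24.7% in the cultures held a Cenpa UMI. Another G2/M gene was held by 10.9%, 21.1%, 14%, 28.3%, 78.8%, 46.6% and 58.7% of these cells in the same order, against 9.16%, 11%, 9.13%, 15.1%, 40.5%, 26.3% and 31.4% of cells without Cenpa. For Top2a the shares with another G2/M gene were 46.9%, 64.7%, 52.3%, 65.5%, 92.7%, 91.7% and 92.7%. In Ptgs+/+ tumours the shares for cells with and without Cenpa lay close together, and in cultures they lay far apart.

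**Figure D5:**
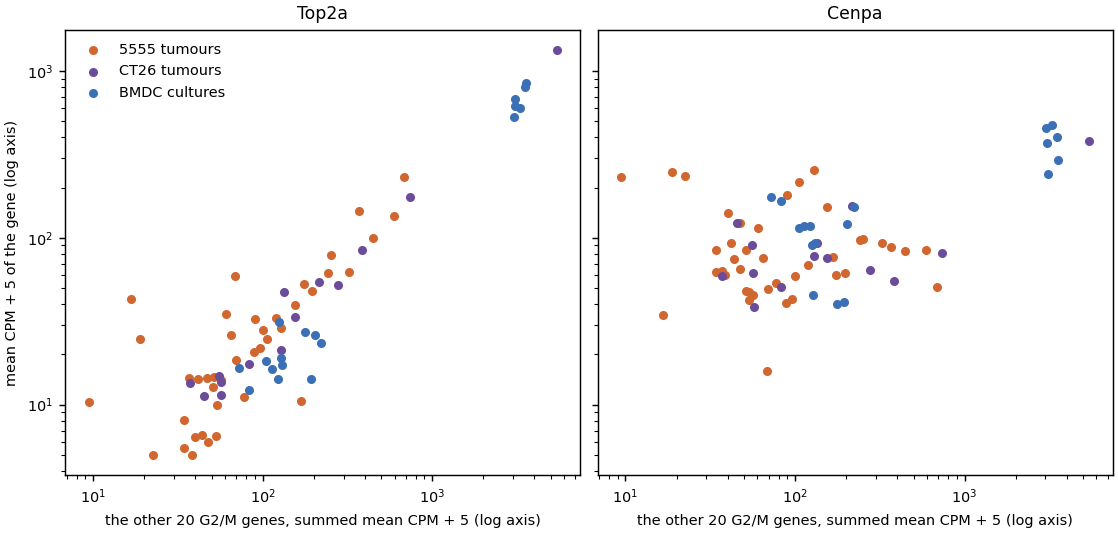
Mean level of Top2a (left) and Cenpa (right) against the summed level of the other 20 G2/M genes, both as CPM plus 5 on log axes; each point is 1 pair of class and group with at least 30 cells. Top2a lies along a diagonal from the lowest to the highest classes, and Cenpa spreads over its range at every level of the other genes outside the proliferating classes.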

How the data were processed

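Single-cell RNA was counted by the 10x 3' assay in live CD45+ cells of 5555 and CT26 tumours and in hashtagged bone marrow cultures. The deposited matrices hold log2 values, log2(CPM + 1) per cell as read from the values themselves, and Cell Ranger 3.0.2, Partek and mm10 are named, with no order or settings, in the submitters' processing notes. Cell classes are the authors' deposited annotation. Whether doublets were removed is not given in the sources used here, and none were called.

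Values were turned back into UMIs, of which 99.932 to 99.942% came out whole. Each cell was thinned to 2000 UMIs (seed 7). Positive cells held UMIs of at least 2 distinct genes of a list. Intervals are 95%: exact Clopper-Pearson for a share, log-scale for the ratio of 2 shares, and exact conditional binomial for summed UMIs. Folds are differences of log2(mean CPM + 5), called by size from 1.5-fold for genes in at least 5% of cells of either group, in classes of at least 30 cells, and centred on the median gene where that shift passed 0.1. Python 3.11.15, numpy 2.4.6, pandas 2.3.3 and scipy 1.17.1 were used, and the calls were tested on simulated data.

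Named genes are, for each list, class and comparison, those with the largest folds, plus Mki67, Top2a, Pcna and Ccnd1. The members and lists were chosen with earlier results of these data known. The deposited 5555 matrix also holds 36 cells with no annotation, which entered no comparison. Alternatives changed the thinning, the number of genes asked for, the pseudocount, the filter, the centring and the class mixture.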

Additional observations from a re-analysis of the deposited data

Results flagged for a closer look

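Several ratios of summed UMIs pointed in opposite directions in different classes under the same comparison. These differences between classes were not tested, since each group is 1 library or condition, and the intervals cover counting error only. They treat every UMI as independent, although many UMIs can come from 1 cell. An interval above or below 1 therefore gives no measure of the spread between cells.

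After NK depletion of Ptgs-/- tumours the S genes had a UMI ratio of 1.93 (1.37 to 2.74) in CCR7+ DCs and 0.607 (0.522 to 0.706) in cDC1s. Of 14 classes, 5 had an interval above 1 and 2 below, counting among the 5 the class annotated as NK cells, whose NK-depleted cells did not carry NK markers. For the G2/M genes without Cenpa the ratio was 5.42 (2.98 to 10.5) in CCR7+ DCs and 0.439 (0.387 to 0.496) in Mono Mac, with 3 of 14 classes above, again with the class annotated as NK cells among them, and 5 below. The CCR7+ DCs number 58 and 45 cells, in Ptgs-/- and NK-depleted tumours. Their G2/M UMIs without Cenpa were 14 and 56, with 1 positive cell of 57 and 1 of 42. The ratio of these shares was 1.36 (0.0874 to 21.1), and the summed mean levels were 49.6 and 117 CPM.

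For Ptgs-/- over Ptgs+/+ tumours the G2/M genes without Cenpa gave 28.1 (13.4 to 70.7) in cDC1s and 0.651 (0.563 to 0.754) in Mono Mac, with 5 of 13 classes above 1 and 1 below.

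In cultures, Ptgs-/- over Ptgs+/+ cells gave an S ratio of 1.45 (1.35 to 1.56) in the class named cDC1 and 0.899 (0.834 to 0.968) in the class named cDC2, with 3 of 6 classes above and 1 below. With Ptgs+/+ cells over untreated, the G2/M genes without Cenpa gave 1.38 (1.11 to 1.72) in pDCs and 0.515 (0.451 to 0.589) in CCR7+ DCs, with 1 of 6 classes above and 4 below. These ratios are not centred, and the median gene was shifted by -0.11 in pDCs and -0.28 in CCR7+ DCs on the log2 scale.

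The 36 cells of the 5555 matrix with no annotation held 6 S-positive cells (16.7%, 6.37 to 32.8), at a median of 13892 UMIs.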

How the results depend on the processing

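No paired analysis was possible because each group is 1 library or 1 hashtagged condition, and for the same reason no replicate could be left out. Of 153 alternative values for 19 results, 92 stayed within the counting interval or within 1.5 times the count, 57 moved and 4 turned direction. Some of the 92 could not differ from the main value. Asking for at least 500 genes per cell left the same cells in every share. Dropping the centring changed nothing where a class was not centred, nor did dropping the filter where every member had passed it. The tally is therefore no measure of robustness. Except where a setting's own construction gives it, the cause was not tested. In the tumour libraries 10.0 to 19.4% of the cells had under 2000 UMIs and were left out of the shares.

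The G2/M ratio of Ptgs-/- over Ptgs+/+ tumours was 2.63 at 1000 UMIs, 1.14 at 4000, 1.35 without thinning, 0.801 with 1 gene asked for (turned), 6.39 with 3 and 4.01 without Cenpa. For NK depletion it was 0.759 at 4000 UMIs, 0.998 without thinning, 0.865 with 1 gene and 0.858 at a fixed class mixture. For cultures with Ptgs+/+ cells over untreated it was 0.698 at 4000 UMIs, 0.834 without thinning, 0.919 with 1 gene, 0.559 with 3, 0.949 at a fixed mixture and 0.550 without Cenpa. For those with Ptgs-/- cells it was 0.888 without thinning, 0.974 with 1 gene and 0.981 at a fixed mixture. Between the co-cultures it was 1.06 without thinning, 1.06 with 1 gene and 1.03 at a fixed mixture.

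The S ratio of Ptgs-/- over Ptgs+/+ tumours was 1.57 at 4000 UMIs, 1.24 with 1 gene, 4.48 with 3, 1.70 at a fixed mixture and 3.31 without Pcna. For NK depletion it turned to 1.12 without thinning, 1.03 with 1 gene and 1.09 at a fixed mixture. For cultures with Ptgs+/+ cells it was 0.268 at 1000 UMIs, 0.428 at 4000, 0.585 without thinning, 0.592 with 1 gene, 0.242 with 3 and 0.458 at a fixed mixture. For those with Ptgs-/- cells it was 0.468, 0.636, 0.684, 0.711, 0.469 and 0.617 under the same settings. Between the co-cultures it was 1.17 without thinning, 1.2 with 1 gene, 1.94 with 3 and 1.30 at a fixed mixture. Leaving out Cenpa or Pcna was chosen after seeing the data.

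For Ptgs-/- over Ptgs+/+ tumours, the 12 S and 17 G2/M genes higher in cDC2s became 7 and 4 with genes in at least 10% of cells and 3 and 2 with mean log2 values per cell, and the 18 G2/M genes higher in cDC1s became 9 with the latter. The 10 G2/M genes lower in cDC2s after NK depletion became 3 with a pseudocount of 20, 3 with genes in at least 10% of cells and 0 with mean log2 values. In culture cDC1s with Ptgs+/+ cells, the 2 G2/M genes lower became 1 with a pseudocount of 20, 7 without centring and 5 with mean log2 values. With Ptgs-/- cells the 10 S genes lower became 5 with a pseudocount of 20. Between the co-cultures the 4 S genes higher became 7 with a pseudocount of 1, 0 with 20 and 1 with mean log2 values.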

Other observations

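In the 36 cells of the 5555 matrix without an annotation, 3 cells (8.33%) were G2/M-positive, beside the S-positive cells already described. Without thinning 80.6% were S-positive and 41.7% G2/M-positive, at a median depth above that of each 5555 library.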
